A study of Homo sapiens with 12 samples.

Results

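The comparison described here sets 3 libraries of reversine-treated hTERT-RPE1 cells against 3 libraries of untreated cells, which are 6 of the 12 RNA sequencing libraries of the series. Libraries were assigned by the treatment that the column names and sample labels give. hTERT-RPE1 is a line of human retinal pigment epithelial cells immortalised with telomerase, and all groups share it. Per the labels, the reversine group received 0.5 µM of the drug for 24 h, was washed, and was collected 48 h after that. The controls were untreated, and the labels name neither a vehicle nor a time in culture for them. Libraries of cells given 0.1 µM bafilomycin A1 (BafA1, a blocker of the lysosomal proton pump) for 6 h and of cells given 1 µM MG132 (a proteasome inhibitor) for 24 h, 3 of each, were used to estimate the spread of each gene and to ask which genes also differed from these treatments. The labels do not state whether libraries of a group are separate cultures. P-values here thus reflect the spread among these libraries, which may be technical.

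Reversine inhibits the kinase Mps1, the product of TTK, which keeps the spindle assembly checkpoint active until chromosomes are attached to spindle microtubules. Cells without this brake enter anaphase too early and missegregate chromosomes, and their daughters are often aneuploid. In cells with functional p53, missegregation is commonly followed by arrest through the CDK inhibitor p21, by loss of the cell cycle transcripts that E2F factors and the DREAM complex control, and by secretion of inflammatory factors. Chromosome content and cell cycle phase were not analysed here.

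After reversine, genes of mitosis and DNA replication were lower, and p21, other p53 targets, inflammatory cytokines and several genes of the stress response and of autophagy were higher. The header of the deposited table names no unit, and values were taken as FPKM (fragment numbers scaled to transcript length and to the mapped fragments of the library). A log2 difference is the reversine mean minus the control mean of log2(FPKM + 1), which understates changes of genes with low values. Of 30712 tested genes, 642 (2.09%) passed an adjusted p of 0.05 in limma, 246 higher (0.801%) and 396 lower (1.29%), and all tested genes together had a median log2 difference of 0.09. The libraries of the groups did not overlap in 20.1% of the tested genes and in all 642 called genes. For a called gene named below, groups without overlap thus describe its values and add no support to its call. Leaving out control 1, 2 or 3 left 247, 332 and 249 called genes, and leaving out reversine 1, 2 or 3 left 584, 336 and 456. Altogether 212 genes (82 higher, 130 lower) were called in all 6 fits that left out 1 control or reversine library, and genes named below belong to these 212 unless other values are given.

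The spread that limma shares among genes was taken over all rows, and 9300 tested rows had transcripts under 500 nt. Among the 16049 longer transcripts alone, a restriction chosen after seeing the data, 1484 genes (9.25%) were called, 590 higher (3.68%) and 894 lower (5.57%). A fit of the 6 control and reversine libraries alone called 11 genes over all rows and 897 (5.59%) over the longer transcripts. The naming rule chose 159 called genes, and 4 of them (IL1B, RRM2, H2AFZ and LMNB1) passed in the 6 libraries over all rows, where adjusted p ran from 0.0318 to 0.352. Of the 156 with a longer transcript, 143 passed in the 6 libraries over longer transcripts.

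Reversine 1 stood apart from the other 2 reversine libraries. Over the longer transcripts the controls correlated with each other at Pearson r 0.979 to 0.991 on log2(FPKM + 1) and reversine 2 with 3 at 0.992, whereas reversine 1 correlated with these at 0.953 and 0.946. These r values are across genes of the same cells, which are not independent. Values of reversine 1 fell by 0.313 log2 units per 10 percentage points of transcript GC content relative to the mean library, and the other 5 libraries had slopes of 0.119 to 0.194. Negative slopes were also found in BafA1 3, MG132 2 and MG132 3, and a fit without these 4 libraries was among the alternatives. Mitochondrially encoded transcripts held 11.2% of total FPKM in reversine 1, against 4.87% and 5.53% in reversine 2 and 3 and 2.92% to 5.61% in controls. Relative depth, read from the lowest values per transcript length, was 0.821 to 1 in controls and 0.746 to 0.93 after reversine. The files give no read counts, and no counting error can be stated.

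Many genes of mitosis and of DNA replication fell. Of 126 tested genes in 7 lists of mitotic machinery, 45 fell, 0 rose and 117 had a log2 difference under 0, with a median of −0.98. Of 83 genes in 4 lists of DNA replication, 31 fell, 0 rose and 77 lay under 0, with a median of −1.05. Without reversine 1, 41 and 28 fell, 123 and 80 lay under 0, and the medians were −1.20 and −1.09. The mitosis count ran from 31 to 41 with any 1 of the 6 libraries left out, and the replication count became 17 without control 1 or control 3. A fit of the 6 control and reversine libraries alone called 0 of the 126 and 1 of the 83 lower over all rows, beside 4 of all 30712. Over longer transcripts it called 56 of 125 and 44 of 82 lower, beside 517 of all 16049. RNA came from whole cultures, so fewer cells in cycle and less of each transcript per cell cannot be told apart.

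Promoters of cell cycle genes carry known elements. DREAM and B-MYB complexes bind the cell cycle genes homology region (CHR), searched here as TTTGAA, and the factor NF-Y binds CCAAT boxes near it. E2F factors bind sites searched here as TTTCCCGC, TTTGGCGC, TTTCGCGC and TTTGCCGC. In windows from 250 bases before to 50 after the RefSeq start, on either strand, the CHR letters stood in 57 of the 107 mitosis-list genes with a promoter in the table (53.3%), in 6 of 74 replication-list genes (8.11%) and in 15.4% of all 27305 promoters. E2F letters stood in 12 of the 107 mitosis-list genes (11.2%), in 24 of the 74 replication-list genes (32.4%) and in 3.33% of all promoters. Among genes that fell, 19.6% held the CHR letters and 15.5% E2F letters, and among genes that rose 11.2% and 2.48%. Among all tested genes with a promoter in the table these shares were 10.5% and 4.94%. CCAAT was in 63.6% of the mitosis-list genes, 56.8% of the replication-list genes and 35.7% of all promoters. A match describes letters in the window and no binding.

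The 100 bases before the start are printed for 4 mitotic genes and 3 genes of replication and its control, all of which fell, to show these elements in place. Capitals mark the CHR in the first 4 and E2F letters, on either strand, in the last 3. Sequences are from RefSeq on GRCh38.p14 and read 5′ to 3′ on the strand of the gene: CDC20 at chr1:43358881-43358980 (+), CCNB2 at chr15:59105046-59105145 (+), PLK1 at chr16:23678789-23678888 (+), PRC1 at chr15:90994536-90994635 (−), E2F1 at chr20:33686386-33686485 (−), UHRF1 at chr19:4909401-4909500 (+) and POLA2 at chr11:65261862-65261961 (+). The deposited values were made on an older build and none of its coordinates is used.
CDC20: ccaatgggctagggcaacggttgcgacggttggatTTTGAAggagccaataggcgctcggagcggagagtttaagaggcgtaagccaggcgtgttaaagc
CCNB2: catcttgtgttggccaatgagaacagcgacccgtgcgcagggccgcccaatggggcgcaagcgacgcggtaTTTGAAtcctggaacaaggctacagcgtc
PLK1: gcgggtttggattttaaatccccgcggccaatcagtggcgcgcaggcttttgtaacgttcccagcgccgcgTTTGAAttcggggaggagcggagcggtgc
PRC1: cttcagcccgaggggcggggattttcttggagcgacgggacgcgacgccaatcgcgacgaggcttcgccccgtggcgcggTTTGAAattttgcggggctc
E2F1: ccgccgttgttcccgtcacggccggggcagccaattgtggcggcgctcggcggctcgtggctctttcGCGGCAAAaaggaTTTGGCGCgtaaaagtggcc
UHRF1: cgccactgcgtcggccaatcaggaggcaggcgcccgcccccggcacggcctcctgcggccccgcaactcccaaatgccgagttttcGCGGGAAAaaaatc
POLA2: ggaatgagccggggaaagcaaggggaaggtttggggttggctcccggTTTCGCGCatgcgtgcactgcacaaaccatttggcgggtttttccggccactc
The CHR began 29 bases before the start in CCNB2 and in PLK1, 20 bases before it in PRC1 and 65 in CDC20. E2F1 held 2 E2F matches, 33 and 20 bases before its start.

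TTK, the target of the drug, was at 7.13, 8.64 and 7.13 FPKM in control 1 to 3 and 7.89, 4.94 and 4.33 FPKM in reversine 1 to 3. Reversine 2 and 3 lay below every control and reversine 1 within their range, and TTK was not called (log2 difference −0.39, adjusted p 0.814, and −0.61 without reversine 1). Of 12 genes of the spindle assembly checkpoint, 1 fell and 0 rose, with a median log2 difference of −0.90. Among the longer transcripts 6 fell in the fit of all groups, where 5.57% of all longer transcripts fell. In the 6 libraries alone 4 fell, beside 517 of all 16049. The called member was BUB1B, a checkpoint kinase, at 32.1, 36.8 and 41.3 FPKM in control 1 to 3 and 17.1, 14.3 and 13.5 FPKM in reversine 1 to 3 (log2 difference −1.24). Its adjusted p was 0.0145 in all libraries and 0.0521, 0.0622 and 0.0945 when leaving out control 1, 2 or 3 and 0.0648 and 0.0561 when leaving out reversine 2 or 3. Whether the checkpoint list differs from the lists that follow was not tested.

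Of 13 genes of the chromosomal passenger complex and the mitotic kinases, 6 fell, and the median log2 difference was −1.33. PLK1 (ENSG00000166851), the kinase of centrosome maturation and mitotic entry, was at 245, 213 and 245 FPKM in control 1 to 3 and 31.6, 48.0 and 48.1 FPKM in reversine 1 to 3 (log2 difference −2.46 ± 0.26 (SE), adjusted p 0.00197). AURKB (ENSG00000178999), the catalytic subunit of the passenger complex, was at 128, 118 and 124 FPKM in control 1 to 3 and 21.2, 33.5 and 39.7 FPKM in reversine 1 to 3 (log2 difference −1.98 ± 0.21 (SE), adjusted p 0.00158). The reversine libraries of both kinases lay well below the controls, with reversine 1 lowest. INCENP, the scaffold of the complex, had a log2 difference of −1.45 (adjusted p 0.00295), and CDCA8, its borealin subunit, one of −1.79 (adjusted p 0.00241). 

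Cyclins, CDC25 phosphatases and the anaphase promoting complex fell in 11 of 23 members, 9 of them in all 6 fits with 1 library left out, and the median log2 difference was −1.08. CDC20 (ENSG00000117399), the activator of the anaphase promoting complex that the checkpoint restrains, was at 344, 323 and 332 FPKM in control 1 to 3 and 36.7, 63.5 and 68.9 FPKM in reversine 1 to 3 (log2 difference −2.59 ± 0.27 (SE), adjusted p 0.00159). CCNB2 (ENSG00000157456), a B-type cyclin that drives mitosis with CDK1, was at 66.5, 51.4 and 45.4 FPKM in control 1 to 3 and 16.3, 12.4 and 12.5 FPKM in reversine 1 to 3 (log2 difference −1.90 ± 0.19 (SE), adjusted p 0.00145). Neither gene's groups overlapped, and reversine 1 was the lowest library for CDC20 and the highest of its group for CCNB2. CDCA3, a cofactor in the destruction of the mitotic inhibitor WEE1, was at 154, 136 and 157 FPKM in control 1 to 3 and 20.8, 31.0 and 27.6 FPKM in reversine 1 to 3 (log2 difference −2.47 ± 0.15 (SE), adjusted p 0.000142). CKS2, a small CDK-binding protein, had a log2 difference of −1.43 (adjusted p 0.00125), and the phosphatase CDC25B one of −1.49 (adjusted p 0.000543).

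At the centromere and outer kinetochore, which tie chromosomes to microtubules, 7 of 28 genes fell, with a median log2 difference of −0.63. CENPM, a subunit of the constitutive centromere network, was at 135, 99.0 and 125 FPKM in control 1 to 3 and 12.8, 26.5 and 25.7 FPKM in reversine 1 to 3 (log2 difference −2.47 ± 0.29 (SE), adjusted p 0.00316). SPC24, of the microtubule-binding NDC80 complex, was at 38.9, 33.8 and 39.1 FPKM in control 1 to 3 and 7.55, 6.77 and 5.44 FPKM in reversine 1 to 3 (log2 difference −2.34 ± 0.18 (SE), adjusted p 0.000483). HJURP, the chaperone that loads the centromeric histone CENPA, had a log2 difference of −1.39 (adjusted p 0.000543). In all 3 genes each reversine library lay below each control. The number of centromere and kinetochore genes that fell was 4 without control 1, control 2, control 3 or reversine 2.

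Mitotic kinesins and spindle proteins fell in 9 of 22 members, and each of the 9 was called with any 1 library left out (median log2 difference −1.08). PRC1, which bundles microtubules of the central spindle, was at 255, 229 and 301 FPKM in control 1 to 3 and 55.0, 66.8 and 63.5 FPKM in reversine 1 to 3 (log2 difference −2.06 ± 0.12 (SE), adjusted p 0.00013). KIF22, the kinesin that pushes chromosome arms to the plate, was at 99.7, 94.6 and 103 FPKM in control 1 to 3 and 21.0, 27.9 and 31.5 FPKM in reversine 1 to 3 (log2 difference −1.87 ± 0.18 (SE), adjusted p 0.00122). The 3 reversine libraries of PRC1 spanned a narrower range than its controls. KIFC1, a minus-end kinesin, had a log2 difference of −1.85 (adjusted p 0.002) and the spindle protein SPAG5 one of −1.66 (adjusted p 0.00112). In cytokinesis 4 of 9 genes fell (median −1.23), among them RACGAP1, of the centralspindlin complex, with a log2 difference of −1.38 (adjusted p 0.002). The number of cytokinesis genes that fell was 2 without control 1 or control 3.

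Condensin and cohesin, the ring complexes that fold chromosomes and hold sister chromatids, fell in 7 of 19 members (median log2 difference −0.84). The condensin subunits NCAPG2 (log2 difference −1.86, adjusted p 0.000521) and NCAPD2 (−1.47, adjusted p 0.00313) were called with any 1 library left out. The number of condensin and cohesin genes that fell was 3 without control 1, 2 without control 3 and 4 without reversine 2.

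**Figure D1:**
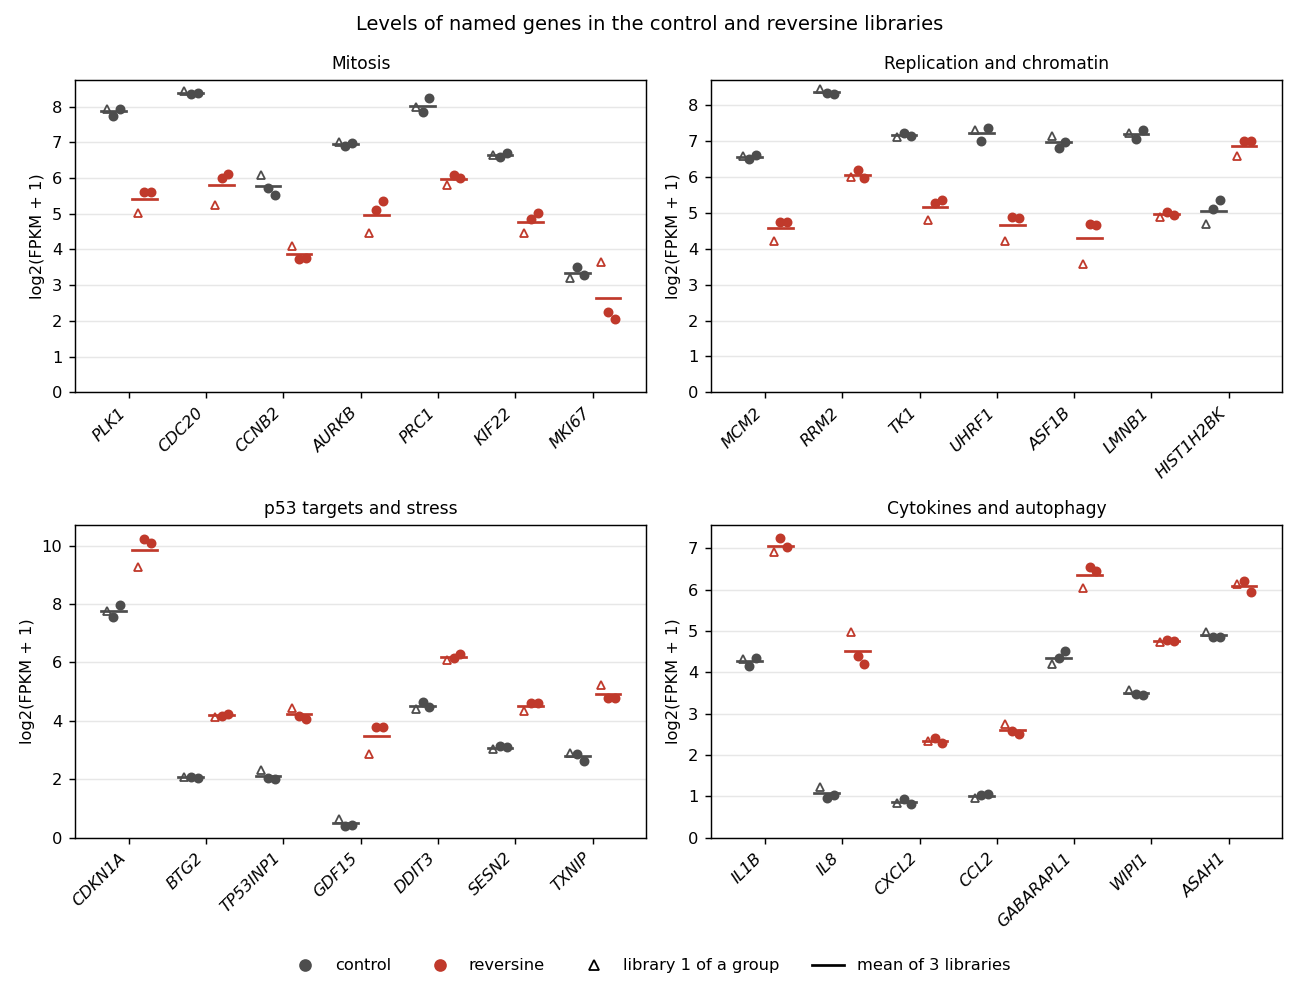
Levels of 28 named genes on the log2(FPKM + 1) axis in each control and reversine library, with library 1 of each group as an open triangle and the mean of 3 libraries as a line. Groups are apart for each gene drawn except MKI67, whose value in reversine 1 (11.6 FPKM) lies above the controls while reversine 2 and 3 (3.73 and 3.15 FPKM) lie below them.

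Reversine 1 tended to hold the higher values of its group for mitotic transcripts low in GC. MKI67, the antigen of the Ki-67 proliferation assay, was at 8.20, 10.4 and 8.74 FPKM in control 1 to 3 and 11.6, 3.73 and 3.15 FPKM in reversine 1 to 3, and HMGB2, a chromatin protein of cycling cells, at 64.2, 80.5 and 69.1 FPKM in control 1 to 3 and 66.1, 24.6 and 26.6 FPKM in reversine 1 to 3. Reversine 2 and 3 lay below all controls for both genes while reversine 1 did not, and neither was called (adjusted p 0.588 and 0.467, limma). Over the mitosis lists, reversine 1 lay above both other reversine libraries in 90 of 126 genes, with a median GC content of 41.9%, and below both in 26, with a median of 56.3%. The 45 called genes of these lists had a median GC content of 51.7% and the others 41.3%. Each reversine library had a negative median difference from the mean control over the mitosis lists, −0.67 in reversine 1, −1.13 in reversine 2 and −1.19 in reversine 3. Over all 396 genes called lower, reversine 1 instead held the lower values. It lay below both other reversine libraries in 275, with a median GC content of 55.8%, and above both in 78. The median differences of these 396 from the mean control were −1.33 in reversine 1, −1.09 in reversine 2 and −1.07 in reversine 3.

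**Figure D2:**
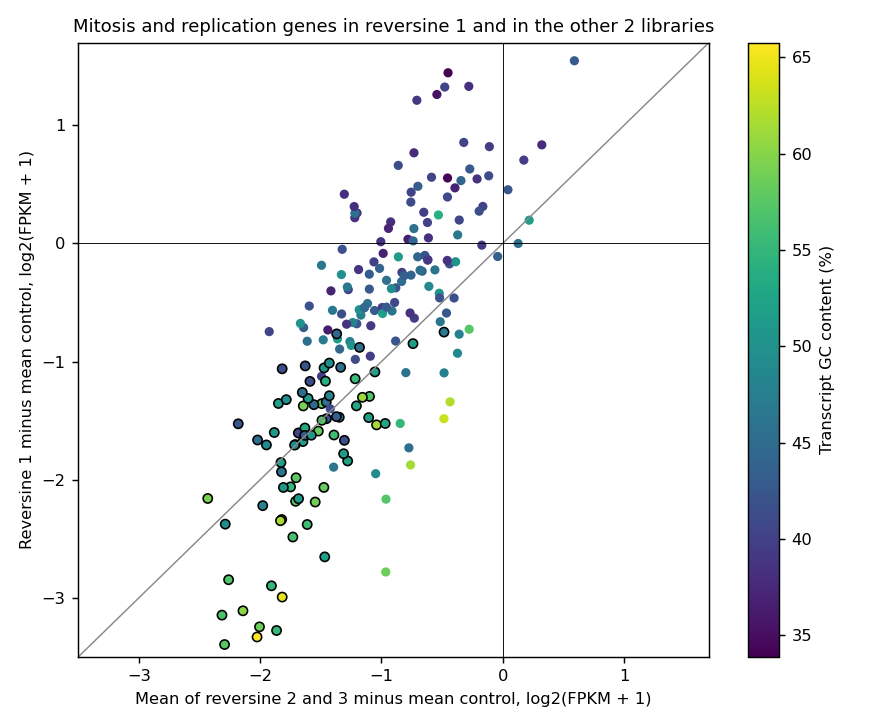
Each of 209 mitosis and replication genes as a point, by its difference from the mean control in reversine 2 and 3 (x axis) and in reversine 1 (y axis), both on the log2(FPKM + 1) scale, coloured by transcript GC content and outlined where called. Most points lie left of 0, and points above the diagonal, higher in reversine 1, are mainly those of low GC content.

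Replication licensing factors and the CMG helicase, which open origins, fell in 13 of 25 members, with a median log2 difference of −1.26. MCM2 (ENSG00000073111), a subunit of the replicative helicase, was at 94.9, 89.2 and 95.6 FPKM in control 1 to 3 and 17.6, 25.7 and 25.6 FPKM in reversine 1 to 3 (log2 difference −1.99 ± 0.16 (SE), adjusted p 0.000569). MCM3, another subunit, was at 89.7, 90.7 and 90.0 FPKM in control 1 to 3 and 24.2, 23.9 and 25.4 FPKM in reversine 1 to 3 (log2 difference −1.84 ± 0.11 (SE), adjusted p 0.00013). The 3 reversine libraries of MCM3 agreed within 2 FPKM of each other, and so did its controls. CDC45, which joins MCM proteins in the active helicase, had a log2 difference of −1.84 (adjusted p 0.000747). The number of licensing genes that fell was 8 without control 1 or control 3.

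Enzymes of nucleotide synthesis fell in 5 of 17 members (median log2 difference −1.05) and DNA polymerases, clamp and ligase in 6 of 26 (median −0.97). RRM2 (ENSG00000171848), the regulated subunit of ribonucleotide reductase, was at 351, 324 and 312 FPKM in control 1 to 3 and 62.4, 72.3 and 61.0 FPKM in reversine 1 to 3 (log2 difference −2.32 ± 0.12 (SE), adjusted p 0.000108). TK1, the S-phase thymidine kinase, was at 138, 147 and 139 FPKM in control 1 to 3 and 26.9, 37.9 and 40.0 FPKM in reversine 1 to 3 (log2 difference −2.00 ± 0.15 (SE), adjusted p 0.000483). Reversine 1 was within the range of its group for RRM2 and lowest for TK1. POLA2, a subunit of the primase polymerase, had a log2 difference of −1.47 (adjusted p 0.00342) and LIG1, which seals Okazaki fragments, one of −1.21 (adjusted p 0.00286). The number of nucleotide synthesis genes that fell was 2 without control 1, control 2, control 3 or reversine 2 and 3 without reversine 3. The number of polymerase, clamp and ligase genes that fell was 2 without control 1 or control 3 and 3 without control 2 or reversine 2.

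Histone chaperones and chromatin replication factors fell in 7 of 15 members (median log2 difference −0.94). ASF1B, which hands new H3 and H4 to assembly factors, had the lowest log2 difference under the naming rule and was at 139, 111 and 125 FPKM in control 1 to 3 and 10.9, 24.8 and 24.4 FPKM in reversine 1 to 3 (log2 difference −2.66 ± 0.35 (SE), adjusted p 0.00484). UHRF1, which brings DNMT1 to replicated DNA, was at 156, 128 and 162 FPKM in control 1 to 3 and 17.7, 28.8 and 28.2 FPKM in reversine 1 to 3 (log2 difference −2.55 ± 0.25 (SE), adjusted p 0.00117). For both genes reversine 1 was the lowest of its group and every reversine library lay below every control. DNMT1, the maintenance methyltransferase, had a log2 difference of −1.47 (adjusted p 0.00117), and CHAF1A, of the chromatin assembly factor CAF-1, one of −1.71 (adjusted p 0.000543).

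Histones moved in both directions. Of 14 histone variants and HMG proteins 5 fell and 0 rose, with a median log2 difference of −0.65. H2AFZ, the gene of the variant H2A.Z, was at 789, 842 and 774 FPKM in control 1 to 3 and 224, 249 and 262 FPKM in reversine 1 to 3 (log2 difference −1.71 ± 0.08 (SE), adjusted p 6.09e-05), and H2AFX, the gene of the damage-marked variant H2A.X, at 269, 271 and 277 FPKM in control 1 to 3 and 59.4, 85.4 and 87.7 FPKM in reversine 1 to 3 (log2 difference −1.82 ± 0.16 (SE), adjusted p 0.000942). Every reversine library lay below every control for both, and related gene copies can share reads of H2AFZ. Of 23 core histones of the gene clusters 18 passed the filter on low values, of which 5 rose and 0 fell, with a median of 1.20. Values in 1 group alone are enough to pass the filter, so this count and median can lean towards genes that rose. HIST2H2BE, given below, passed it only through its reversine libraries. HIST1H2BK, an H2B gene, was at 24.6, 33.3 and 40.1 FPKM in control 1 to 3 and 95.3, 126 and 128 FPKM in reversine 1 to 3 (log2 difference 1.82 ± 0.22 (SE), adjusted p 0.00324), and HIST2H2BE, another, at 0.29, 0.23 and 0.35 FPKM in control 1 to 3 and 5.28, 3.09 and 2.22 FPKM in reversine 1 to 3 (log2 difference 1.76 ± 0.24 (SE), adjusted p 0.00657, gene ENSG00000184678, as another row has the same symbol). Replication-dependent histone transcripts mostly lack a poly(A) tail, and the libraries were selected with oligo(dT), per the labels. Whether these values come from polyadenylated transcripts was not tested, and near-identical copies can share reads. The number of core histones that rose was 3 without control 1 and 2 without control 2, control 3, reversine 2 or reversine 3. The number of histone variants that fell was 3 without control 1, control 2, control 3, reversine 2 or reversine 3.

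Repair genes fell in part. Of 28 genes of homologous recombination and the Fanconi pathway 9 fell and 0 rose (median log2 difference −0.67), among them RAD54L, a translocase of strand exchange (−1.72, adjusted p 0.00373), RMI2, of the BLM complex (−1.62, adjusted p 0.00122), and FANCG, of the Fanconi core complex (−1.27, adjusted p 0.00117). Of 20 genes of damage sensing and signalling, 0 rose and 0 fell, with a median of −0.19. Among the longer transcripts 3 fell in the fit of all groups, where 5.57% of all longer transcripts fell. In the 6 libraries alone 0 fell, beside 517 of all 16049. The number of recombination and Fanconi genes that fell was 5 without control 1.

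Among the transcription factors that run these programs, 5 of 18 E2F, FOXM1, B-MYB and DREAM regulators fell and 0 rose, each of the 5 with any 1 library left out (median log2 difference −0.47). MYBL2 (ENSG00000101057), the gene of B-MYB, was at 54.9, 52.4 and 58.6 FPKM in control 1 to 3 and 5.63, 10.4 and 9.96 FPKM in reversine 1 to 3 (log2 difference −2.58 ± 0.22 (SE), adjusted p 0.000649). E2F1 (ENSG00000101412) was at 56.5, 51.7 and 59.9 FPKM in control 1 to 3 and 6.97, 9.80 and 14.2 FPKM in reversine 1 to 3 (log2 difference −2.38 ± 0.25 (SE), adjusted p 0.00191), and FOXM1, which drives G2 and mitotic genes, at 120.1, 129 and 125 FPKM in control 1 to 3 and 43.6, 37.2 and 34.8 FPKM in reversine 1 to 3 (log2 difference −1.67 ± 0.12 (SE), adjusted p 0.00043). No reversine value of these 3 factors reached a control value. TFDP1, the dimer partner of E2F proteins, had a log2 difference of −1.24 (adjusted p 0.000953).

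Among CDK inhibitors, CDKs and D-type cyclins, 1 of 13 genes rose and 2 fell. CDKN1A (ENSG00000124762), the gene of p21, was at 215, 189 and 253 FPKM in control 1 to 3 and 618, 1198 and 1082 FPKM in reversine 1 to 3 (log2 difference 2.09 ± 0.29 (SE), adjusted p 0.0063). CDK2, the S-phase kinase that p21 inhibits, was at 117, 123 and 138 FPKM in control 1 to 3 and 35.3, 44.1 and 45.2 FPKM in reversine 1 to 3 (log2 difference −1.58 ± 0.15 (SE), adjusted p 0.00112). All reversine libraries lay above the controls for CDKN1A, with reversine 1 nearest to them, and below the controls for CDK2. CDKN2A, the locus of p16 and ARF, was at 855, 667 and 947 FPKM in control 1 to 3 and 237, 739 and 807 FPKM in reversine 1 to 3, CDKN1B, the gene of p27, at 23.2, 30.2 and 24.7 FPKM in control 1 to 3 and 34.2, 21.7 and 19.5 FPKM in reversine 1 to 3, and CCND1, cyclin D1, at 1323, 997 and 1346 FPKM in control 1 to 3 and 494, 1490.2 and 1243 FPKM in reversine 1 to 3. Groups overlapped for these 3 genes, reversine 1 lay outside the range of the other 5 libraries in each, and none was called (adjusted p 0.714, 0.874 and 0.814, limma). The log2 difference of CCND1 was −0.32 and turned to 0.17 without reversine 1. The number of genes of this list that fell was 1 without control 1, control 2, control 3 or reversine 2.

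The nuclear lamina and envelope list had 4 of 15 genes lower and 0 higher (median log2 difference −0.54). LMNB1 (ENSG00000113368), the B-type lamin whose loss is used as a marker of senescence, was at 149, 132 and 156 FPKM in control 1 to 3 and 28.6, 31.6 and 29.9 FPKM in reversine 1 to 3 (log2 difference −2.24 ± 0.12 (SE), adjusted p 0.000108). LMNB2, the other B-type lamin, was at 160.2, 132 and 167 FPKM in control 1 to 3 and 44.9, 55.5 and 58.1 FPKM in reversine 1 to 3 (log2 difference −1.52 ± 0.17 (SE), adjusted p 0.00241). The 3 reversine libraries of LMNB1 lay close together and far below the controls. The number of lamina and envelope genes that fell was 2 without control 1 or control 3.

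Targets of p53 rose in part. Of 30 tested targets of arrest and repair 8 rose, 0 fell and 28 had a log2 difference above 0, with a median of 0.97. Among the longer transcripts 16 rose in the fit of all groups, where 3.68% of all longer transcripts rose. In the 6 libraries alone 11 rose, beside 380 of all 16049. BTG2 (ENSG00000159388), an antiproliferative regulator of mRNA decay, was at 3.17, 3.26 and 3.12 FPKM in control 1 to 3 and 16.7, 17.1 and 18.0 FPKM in reversine 1 to 3 (log2 difference 2.13 ± 0.18 (SE), adjusted p 0.000569). TP53INP1, a p53 cofactor that also acts in autophagy, was at 4.03, 3.07 and 3.01 FPKM in control 1 to 3 and 20.9, 16.9 and 15.9 FPKM in reversine 1 to 3 (log2 difference 2.11 ± 0.21 (SE), adjusted p 0.0013), and SESN2, a sestrin that restrains mTORC1, at 7.11, 7.84 and 7.53 FPKM in control 1 to 3 and 19.0, 23.4 and 23.3 FPKM in reversine 1 to 3 (log2 difference 1.43 ± 0.16 (SE), adjusted p 0.00245). In each of these 3 genes the lowest reversine library exceeded the highest control more than 2-fold. MDM2, the ligase that degrades p53, was at 30.7, 27.6 and 37.6 FPKM in control 1 to 3 and 114, 63.1 and 62.4 FPKM in reversine 1 to 3. Its groups did not overlap, and it was not called (adjusted p 0.282), nor did it pass among longer transcripts in all groups (adjusted p 0.0998) or in the 6 libraries over all rows (adjusted p 0.269). It passed in the 6 libraries over longer transcripts (adjusted p 0.0441). Of 14 regulators of p53, 0 rose and 1, TP73, a relative of p53, fell, with a log2 difference of −1.26 and an adjusted p of 0.00983 in all libraries and 0.0509 when leaving out control 3.

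Cytokines and chemokines, which senescent and aneuploid cells are known to secrete, rose in part. Of 17 chemokines 8 passed the filter on low values, of which 6 rose and 0 fell (median log2 difference 1.35). Libraries of 1 group can meet the filter alone, so this count and median can lean towards genes that rose. Of 18 tested interleukins, growth factors and receptors 4 rose and 0 fell (median 0.27). IL8 (ENSG00000169429), which draws neutrophils, was at 1.33, 0.94 and 1.03 FPKM in control 1 to 3 and 30.3, 20.1 and 17.5 FPKM in reversine 1 to 3 (log2 difference 3.46 ± 0.44 (SE), adjusted p 0.00445), the highest log2 difference under the naming rule. IL1B (ENSG00000125538), the gene of pro-interleukin-1β, was at 19.0, 16.9 and 19.2 FPKM in control 1 to 3 and 119, 151 and 129 FPKM in reversine 1 to 3 (log2 difference 2.79 ± 0.15 (SE), adjusted p 0.000108). IL8 was highest in reversine 1 and IL1B lowest there, and the groups of neither gene overlapped. CCL2, a monocyte attractant, was at 0.93, 1.04 and 1.06 FPKM in control 1 to 3 and 5.68, 4.99 and 4.65 FPKM in reversine 1 to 3 (log2 difference 1.60 ± 0.15 (SE), adjusted p 0.00117), CXCL2, a relative of IL8, at 0.79, 0.90 and 0.75 FPKM in control 1 to 3 and 4.08, 4.33 and 3.87 FPKM in reversine 1 to 3 (log2 difference 1.49 ± 0.15 (SE), adjusted p 0.00132), and CCL3, which has near-identical copies that can share its reads, at 0.37, 1.68 and 0.50 FPKM in control 1 to 3 and 9.95, 13.9 and 15.8 FPKM in reversine 1 to 3 (log2 difference 2.99 ± 0.28 (SE), adjusted p 0.00117). These 3 chemokines did not exceed 1.68 FPKM in any control, where log2(FPKM + 1) compresses differences. IL6 was at 2.00, 3.28 and 1.87 FPKM in control 1 to 3 and 8.79, 6.72 and 6.76 FPKM in reversine 1 to 3 (log2 difference 1.33, adjusted p 0.0134 in all libraries, 0.0828 and 0.0623 when leaving out control 1 or 3), and this call was also lost without the 4 libraries with negative GC slopes. The number of chemokines that rose was 4 without control 1, control 2 or control 3 and 5 without reversine 2 or reversine 3. The number of interleukin list genes that rose was 1 without control 1 and 2 without control 3 or reversine 2.

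NF-κB is known to bind promoters of cytokine genes. The CXCL2 promoter is printed because it holds a match to the letters searched here, GGGNNTTCC. Other forms of the NF-κB site were not searched, and any among the printed bases are not marked. A match describes letters and no binding. The letters GGGNNTTCC, on either strand, stood in 9 of 46 inflammation-list genes with a promoter in the table (19.6%). They stood in 6.21% of genes that rose, in 7.71% of tested genes and in 6.6% of all promoters. In CXCL2 (RefSeq, GRCh38.p14, chr4:74099196-74099295, − strand) the match, in capitals, began 53 bases before the start.
CXCL2: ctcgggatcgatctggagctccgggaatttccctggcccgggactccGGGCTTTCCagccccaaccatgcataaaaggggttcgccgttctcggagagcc
Of 17 NF-κB subunits and feedback genes, 3 rose and 0 fell, with a median log2 difference of 0.36, and none of the 3 was called with every library left out in turn. The number of NF-κB list genes that rose was 0 without control 1 and 1 without control 2 or control 3.

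Other secreted and immune genes changed in part. Of 17 secreted proteases and IGF binding proteins 4 rose (median log2 difference 0.48). IGFBP5, which binds insulin-like growth factors, was at 5.88, 6.35 and 6.10 FPKM in control 1 to 3 and 22.8, 17.3 and 14.2 FPKM in reversine 1 to 3 (log2 difference 1.40), with an adjusted p of 0.0105 in all libraries and 0.0608 and 0.0525 when leaving out control 1 or 2. Of 15 complement genes 3 rose, among them C1S, a protease of the first complex, at 9.48, 9.32 and 8.76 FPKM in control 1 to 3 and 23.6, 24.1 and 21.7 FPKM in reversine 1 to 3 (log2 difference 1.24 ± 0.14 (SE), adjusted p 0.0022). All 3 reversine libraries of IGFBP5 and C1S exceeded all controls. Of 23 interferon response genes 3 rose and 1 fell (median 0.49). IFI6, an interferon-induced mitochondrial protein, was at 13.5, 14.4 and 16.5 FPKM in control 1 to 3 and 37.6, 42.9 and 39.2 FPKM in reversine 1 to 3 (log2 difference 1.37 ± 0.18 (SE), adjusted p 0.00459), and STAT2, a factor of the type I response, at 31.4, 27.4 and 31.8 FPKM in control 1 to 3 and 84.0, 71.6 and 60.9 FPKM in reversine 1 to 3 (log2 difference 1.22 ± 0.14 (SE), adjusted p 0.00313). The member that fell, OAS3, a sensor of double-stranded RNA, had a log2 difference of −1.25 with an adjusted p of 0.00917 in all libraries and 0.0565 and 0.0561 when leaving out control 1 or 3. Of 14 sensors of DNA and RNA, 15 genes of class I presentation and 12 ligands of natural killer cells, 0 were called in either direction. The number of proteases and IGF binding proteins that rose was 1 without control 1 or control 2 and 2 without control 3.

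Autophagy carries cytoplasm to lysosomes in membranes that bear LC3 and GABARAP proteins. Of 16 LC3 and GABARAP genes and receptors 4 rose and 0 fell, with a median log2 difference of 0.64. Among the longer transcripts 8 rose in the fit of all groups, where 3.68% of all longer transcripts rose. In the 6 libraries alone 6 rose, beside 380 of all 16049. GABARAPL1 (ENSG00000139112), a GABARAP protein, was at 17.4, 19.2 and 21.9 FPKM in control 1 to 3 and 65.1, 92.8 and 85.7 FPKM in reversine 1 to 3 (log2 difference 1.99 ± 0.17 (SE), adjusted p 0.000628). MAP1LC3B, the LC3 of the usual autophagy assay, was at 39.0, 48.3 and 35.5 FPKM in control 1 to 3 and 93.7, 85.9 and 77.0 FPKM in reversine 1 to 3, and SQSTM1, the receptor p62, at 383, 372 and 373 FPKM in control 1 to 3 and 670.4, 1047 and 943 FPKM in reversine 1 to 3. Reversine 1 was lowest of its group for GABARAPL1 and SQSTM1 and highest for MAP1LC3B, and no library crossed between groups. MAP1LC3B had a log2 difference of 1.05 with an adjusted p of 0.0101 in all libraries and 0.0585 and 0.0652 when leaving out control 1 or 3, and its call was lost without the 4 libraries with negative GC slopes. SQSTM1 had a log2 difference of 1.21 with an adjusted p of 0.0134 in all libraries and 0.0641, 0.0608 and 0.0674 when leaving out control 1, 2 or 3 and 0.0586 and 0.0564 when leaving out reversine 2 or 3, and its call was lost under median-ratio scaling. The number of LC3 list genes that rose was 1 without control 1 or control 3 and 2 without control 2, reversine 2 or reversine 3.

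Of 29 genes of autophagosome initiation and conjugation 1 rose and 0 fell, with a median log2 difference of 0.01 beside 0.09 for all tested genes. The called member, WIPI1, which binds the lipid of the forming membrane, was at 10.8, 10.1 and 10.0 FPKM in control 1 to 3 and 25.8, 26.3 and 25.8 FPKM in reversine 1 to 3 (log2 difference 1.25 ± 0.15 (SE), adjusted p 0.00331). TFEB, a master factor of lysosomal genes, was at 22.4, 19.6 and 92.9 FPKM in control 1 to 3 and 11.6, 23.7 and 31.5 FPKM in reversine 1 to 3 and was not called (adjusted p 0.814). Control 3 stood far above the other 5 libraries, and the groups overlapped.

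Lysosomal hydrolases rose in 8 of 39 members and fell in 0 (median log2 difference 0.44). Among the longer transcripts 12 rose in the fit of all groups, where 3.68% of all longer transcripts rose. In the 6 libraries alone 6 rose, beside 380 of all 16049. ASAH1, acid ceramidase, was at 30.2, 28.1 and 27.8 FPKM in control 1 to 3 and 69.3, 72.5 and 60.2 FPKM in reversine 1 to 3 (log2 difference 1.20 ± 0.13 (SE), adjusted p 0.00205), the call of this list that held with any 1 library left out. Of 24 lysosomal membrane proteins and MiT/TFE factors 1 rose, GPNMB, a glycoprotein of lysosomes and melanosomes, at 65.4, 65.8 and 62.2 FPKM in control 1 to 3 and 125, 119 and 122 FPKM in reversine 1 to 3 (log2 difference 0.91 ± 0.09 (SE), adjusted p 0.00153). All reversine libraries of both genes were above all controls. Of 17 V-ATPase subunits 1 rose, ATP6AP2, an accessory subunit, with a log2 difference of 0.64 and an adjusted p of 0.0111 in all libraries and 0.0619, 0.0507 and 0.0751 when leaving out control 1, 2 or 3 and 0.0524 when leaving out reversine 2, and its call was lost under median-ratio scaling. The number of hydrolases that rose was 1 without control 1, control 3 or reversine 2, 3 without control 2 and 5 without reversine 3. The palindrome TCACGTGA, core of the CLEAR element that TFEB binds, stood in 9 of 71 promoters of these lists and the LC3 list (12.7%). It stood in 0.621% of genes that rose, in 1.72% of tested genes and in 1.04% of all promoters.

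**Figure D3:**
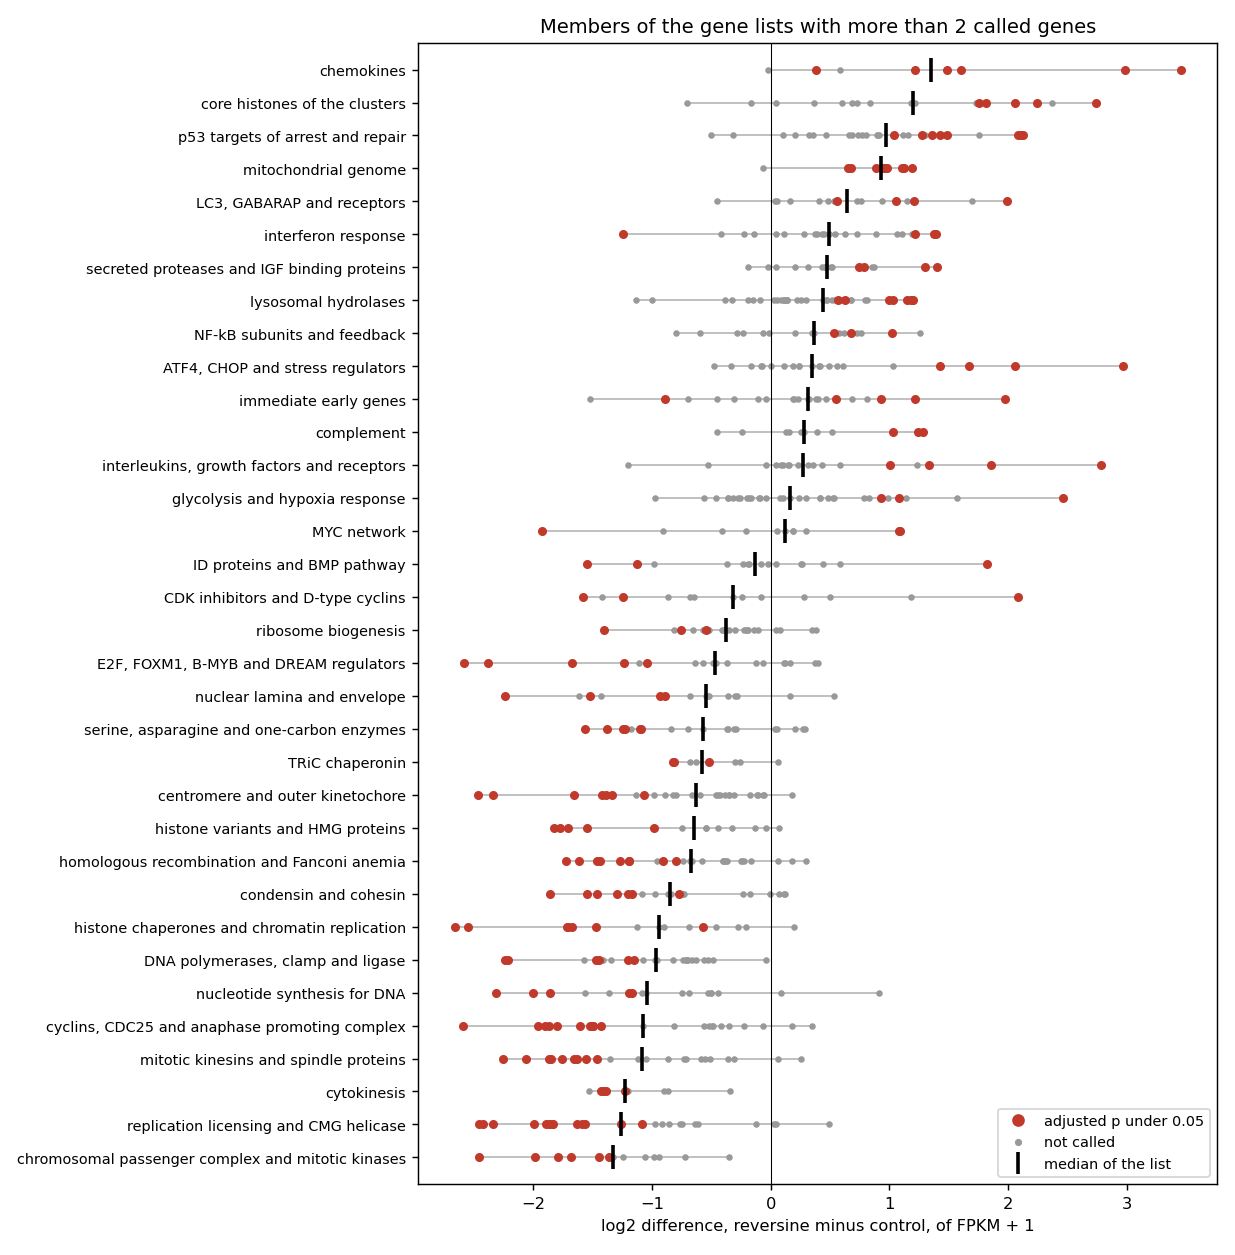
Log2 differences (reversine minus control, of FPKM + 1) of the tested members of each list with more than 2 called genes, 1 list per line, with called genes in red, others in grey and the median as a black bar. The medians of the mitosis and replication lists lie left of 0, down to −1.33 for the passenger complex and kinases, and those of the chemokines (1.35) and the core histones (1.20) lie right of it. Of 17 chemokines 8 passed the filter on low values and are drawn, and of 23 core histones 18.

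Regulators of the stress response rose in 4 of 21 members, each with any 1 library left out, and 0 fell (median log2 difference 0.35). GDF15 (ENSG00000130513), a stress-induced secreted factor, was at 0.57, 0.33 and 0.36 FPKM in control 1 to 3 and 6.33, 12.7 and 12.7 FPKM in reversine 1 to 3 (log2 difference 2.97 ± 0.25 (SE), adjusted p 0.000569). DDIT3 (ENSG00000175197), the gene of CHOP, was at 20.3, 23.9 and 21.4 FPKM in control 1 to 3 and 67.3, 70.5 and 78.1 FPKM in reversine 1 to 3 (log2 difference 1.67 ± 0.14 (SE), adjusted p 0.000569), and ATF3, a stress-induced factor of the ATF family, at 1.95, 2.42 and 2.27 FPKM in control 1 to 3 and 15.2, 12.1 and 10.1 FPKM in reversine 1 to 3 (log2 difference 2.06 ± 0.23 (SE), adjusted p 0.00245). GDF15 was lowest in reversine 1 and ATF3 highest there, and no library crossed between groups. Without reversine 1, 7 of the 21 rose. Enzymes of serine, asparagine and one-carbon metabolism, several of which ATF4 is known to raise, fell in 6 of 19 members and rose in 0, with a median of −0.57. PHGDH, the first enzyme of serine synthesis, was at 178, 177 and 175 FPKM in control 1 to 3 and 42.8, 65.5 and 73.8 FPKM in reversine 1 to 3 (log2 difference −1.56 ± 0.18 (SE), adjusted p 0.00264), and MTHFD2, a mitochondrial folate enzyme, had a log2 difference of −1.10 (adjusted p 0.00484). ASNS, asparagine synthetase, had one of −1.09, with an adjusted p of 0.0089 in all libraries and 0.067 when leaving out control 3, and its call was lost without the 4 libraries with negative GC slopes. The number of one-carbon enzymes that fell was 3 without control 3.

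Chaperones changed in part, and targets of oxidative stress and proteasome genes in single members. Of 23 genes of the HSP70, HSP90 and DNAJ families 1 rose and 1 fell (median log2 difference 0.14), and 0 were called with every library left out in turn. Of 8 subunits of the TRiC chaperonin, which folds tubulin and actin, 3 fell, 0 rose and 7 had a log2 difference under 0 (median −0.58). CCT5 was at 378, 394 and 377 FPKM in control 1 to 3 and 184, 232 and 234 FPKM in reversine 1 to 3 (log2 difference −0.83 ± 0.10 (SE), adjusted p 0.00335), and TCP1 had a log2 difference of −0.82 (adjusted p 0.0052). HSPB8, a small heat shock protein that works with BAG3, was at 13.6, 15.8 and 14.5 FPKM in control 1 to 3 and 45.1, 40.9 and 37.1 FPKM in reversine 1 to 3 (log2 difference 1.42 ± 0.15 (SE), adjusted p 0.00166), the 1 called gene of 11 in its list. HMOX1, heme oxygenase, was the 1 called gene among 20 targets of the oxidative stress factor NRF2, at 28.6, 35.8 and 37.5 FPKM in control 1 to 3 and 73.3, 105 and 98.2 FPKM in reversine 1 to 3 (log2 difference 1.41 ± 0.19 (SE), adjusted p 0.00503). Of 31 proteasome genes 1, PSMC3, fell and 0 rose, with a median of −0.19, and that call was lost whenever a control or reversine 2 was left out.

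Of 5 genes of the TXNIP and arrestin-domain family 2 rose, and of 33 genes of glycolysis and the hypoxia response, which include ANGPTL4 and MXI1, 3 rose, with 0 lower in either list. TXNIP (ENSG00000265972), which binds thioredoxin and restrains glucose uptake, was at 6.37, 6.28 and 5.19 FPKM in control 1 to 3 and 36.2, 26.8 and 26.3 FPKM in reversine 1 to 3 (log2 difference 2.14 ± 0.24 (SE), adjusted p 0.00242). ANGPTL4, a secreted inhibitor of lipoprotein lipase, was at 3.44, 2.25 and 3.37 FPKM in control 1 to 3 and 16.1, 24.1 and 23.5 FPKM in reversine 1 to 3 (log2 difference 2.46 ± 0.24 (SE), adjusted p 0.00122). For both, every reversine library lay above every control. In the MYC network of 11 genes, MXD4, an antagonist of MYC at shared sites, rose with a log2 difference of 1.09 (adjusted p 0.00459), and MXI1, another, with 1.08 (adjusted p 0.00562), a call lost without the 4 libraries with negative GC slopes. MXD3, a member of the family known from proliferating cells, fell with a log2 difference of −1.92, with an adjusted p of 0.0111 in all libraries and 0.0527 and 0.0647 when leaving out control 1 or 3. Of 15 FOXO targets and mTORC1 regulators 2 rose, FBXO32, an atrophy ubiquitin ligase (1.44, adjusted p 0.00762), and PIK3IP1, an inhibitor of PI3 kinase (1.54, adjusted p 0.00392).

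Immediate early genes and the BMP pathway changed in few members. EGR1 (ENSG00000120738), a growth-induced zinc finger factor, was at 0.83, 0.84 and 0.78 FPKM in control 1 to 3 and 5.49, 7.25 and 5.80 FPKM in reversine 1 to 3 (log2 difference 1.97 ± 0.12 (SE), adjusted p 0.00013), and 4 of 21 genes of its list rose and 1 fell. BMP2, a ligand, was at 0.37, 0.50 and 0.80 FPKM in control 1 to 3 and 4.61, 4.81 and 4.02 FPKM in reversine 1 to 3 (log2 difference 1.82 ± 0.13 (SE), adjusted p 0.000413). ID1 and ID3, inhibitors of basic helix-loop-helix factors and usual targets of BMP signalling, fell, ID1 from 189, 172 and 209.7 FPKM in control 1 to 3 to 46.6, 76.4 and 74.7 FPKM in reversine 1 to 3 (log2 difference −1.54 ± 0.19 (SE), adjusted p 0.00392) and ID3 with a log2 difference of −1.12 (adjusted p 0.000989). The number of immediate early genes that rose was 2 without control 1, control 3 or reversine 2. The number of such genes that fell was 0 without control 1, control 2, control 3, reversine 1, reversine 2 or reversine 3.

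Of 13 mitochondrially encoded genes 10 rose and 0 fell, with a median log2 difference of 0.93, and of 33 nuclear-encoded respiratory chain genes 0 rose and 0 fell, with a median of −0.15. MT-ND1 was at 1162, 1249 and 1230.1 FPKM in control 1 to 3 and 3394, 2409 and 2610.4 FPKM in reversine 1 to 3 (log2 difference 1.19 ± 0.13 (SE), adjusted p 0.00212). Reversine 1, the library with the highest mitochondrial share, was highest, but reversine 2 and 3 also lay above the controls. Nuclear copies of these genes can share their reads, and the part of the mitochondrial share in the result was not tested. Without reversine 1, 9 rose, and the median was 0.80. The number of mitochondrial genes that rose was 4 without control 1 and 5 without control 2 or control 3.

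Of 16 markers of retinal pigment epithelium, RPE65, TYR, DCT and TTR, which serve the visual cycle, pigment and retinol transport, did not pass the filter on low values, and the 12 tested markers held 0 calls. Markers detected well, chosen after their values were seen, were the keratins KRT8, at 819 ± 99.6 FPKM in controls and 836 ± 144 FPKM after reversine (SD, n = 3), and KRT18, at 442 ± 26.6 and 608 ± 19.0 FPKM (SD, n = 3). OTX2, an eye field factor, was at 14.1 ± 1.43 and 12.9 ± 1.27 FPKM (SD, n = 3). Values of the other tested markers are not given here, and the identity of the cells was not tested from these markers. Of 6 blood, 4 neuron, 3 endothelial and 7 other epithelial and mesodermal markers that passed the filter, 0 were called.

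Some changes set reversine apart from the other treatments too. The fit called 377 genes (1.23%) between reversine and BafA1 and 2000 (6.51%) between reversine and MG132. These comparisons share the reversine libraries with the one against control, so their values are given side by side and not counted together. IL1B was above BafA1 (log2 difference 2.51, adjusted p 0.00022) and above MG132 (3.40, adjusted p 8.76e-06). CST2, a secreted inhibitor of cysteine proteases whose close relatives can share its reads, was at 0.94, 0.39 and 0.84 FPKM in control 1 to 3 and 7.38, 12.2 and 12.7 FPKM in reversine 1 to 3 (log2 difference 2.75 ± 0.20 (SE), adjusted p 0.00043), and it exceeded BafA1 (2.64, adjusted p 0.000532) and MG132 (3.08, adjusted p 5.74e-05). BTG2 exceeded BafA1 (2.05, adjusted p 0.000768) and MG132 (1.53, adjusted p 0.00101), and so did EGR1 (1.59, adjusted p 0.000495 and 2.40, adjusted p 1.56e-05). CCNB2 was below BafA1 (−1.82, adjusted p 0.00241) and MG132 (−0.81, adjusted p 0.0389). Each of these 5 genes differed between reversine and the other 3 groups in 1 direction. CST2 passed the filter on low values only through its reversine libraries.

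For other genes the values after MG132 were near or beyond those after reversine. PLK1 was below BafA1 (log2 difference −1.93, adjusted p 0.009), but its difference from MG132 did not pass (0.38, adjusted p 0.273). CDC20 likewise was below BafA1 (−1.85, adjusted p 0.012) and not called against MG132 (0.27, adjusted p 0.457). For GABARAPL1, reversine exceeded BafA1 (1.24, adjusted p 0.00843) and lay below MG132 (−2.15, adjusted p 0.000127), and DDIT3 did the same (1.33, adjusted p 0.00218 and −2.40, adjusted p 2.92e-05). LMNB1 was below BafA1 (−1.78, adjusted p 0.000296) and above MG132 (1.14, adjusted p 0.000667). Among the other cytokines and chemokines named above, CCL2 exceeded MG132 (1.67, adjusted p 0.000294). The differences from MG132 did not pass for IL8 (1.73, adjusted p 0.0508) and CCL3 (0.68, adjusted p 0.14). Nor did they for CXCL2 (−0.41, adjusted p 0.0942) and IL6 (0.76, adjusted p 0.0743). Doses and times differed between the treatments.

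**Figure D4:**
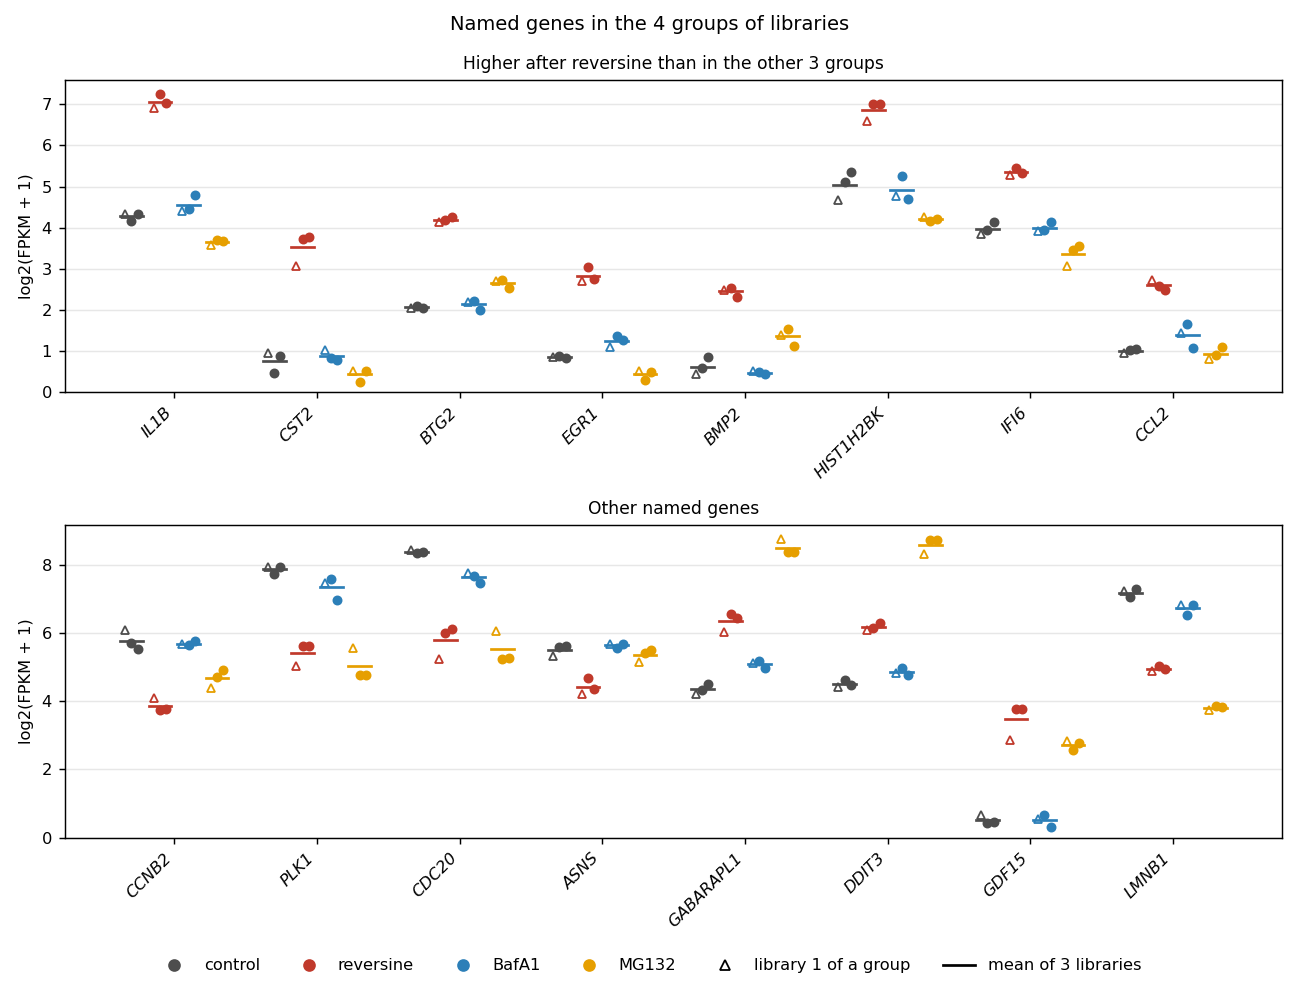
Levels of 16 named genes on the log2(FPKM + 1) axis in the 3 libraries of each of the 4 groups, with library 1 of each group as an open triangle and lines for means. In the upper panel the reversine libraries lie above all others, as for IL1B with 119 to 151 FPKM after reversine, and in the lower panel GABARAPL1 and DDIT3 are highest after MG132.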

How the data were processed

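RNA of 12 libraries was selected with oligo(dT) and sequenced, per the labels' protocols. The authors deposited 1 table of values per gene, made with Bowtie 1.0.0 and RSEM 1.2.6 on hg19 (GRCh37), per the submitters' processing notes. Its header names no unit, and the deposited values were taken as FPKM because library totals differ and the lowest values fall with transcript length. Rows with at least 1 FPKM in 3 libraries (30712 of 53361) were tested on log2(FPKM + 1) with limma 3.58.1 in R 4.3.3, with an intensity trend, a single fit of the 4 groups, and Benjamini-Hochberg adjustment over all tested rows at 0.05. The libraries of 1 group can meet this filter alone, so lists may hold members that passed only through their reversine libraries. Groups came from the labelled treatment. Library numbers follow the order of deposit and pair nothing.

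The members, gene lists and alternatives were chosen with earlier results of these data known. Named genes are a set list of 20 genes whatever their values, up to 4 called members of each list in each direction, and the 8 highest and 8 lowest log2 differences among genes that were called with any 1 library left out, averaged 2 FPKM or more and had groups without overlap. Alternatives changed the pseudocount (0.1), the filter, the scaling, the libraries and the set of transcripts. The fit was tried on simulated data. Their noise was independent between genes and libraries, with no GC trend and no outlying library, so the trial does not cover these features of the data. Promoters are RefSeq sequences on GRCh38.p14. Some genes of the naming rule are not reported here.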

Additional observations from a re-analysis of the deposited data

How the results depend on the processing

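Between reversine and control 642 genes were called. As separate totals, 746 were called with a pseudocount of 0.1, 579 without a filter, 588 with a filter of 5 FPKM, 437 with median-ratio scaling (190 higher, 247 lower) and 794 without the 4 libraries with negative GC slopes. A correction for GC content and length called 1104 (474 higher, 630 lower). Transcripts of at least 500 nt gave 1484 (590 higher, 894 lower), 1275 without reversine 1 (614 higher, 661 lower) and 897 in the 6 libraries alone (380 higher, 517 lower), and the 6 libraries over all rows gave 11 (7 higher, 4 lower). With 1 library left out, 247 to 584 were called, 93 to 264 higher and 147 to 320 lower. No called gene that is named changed sign. Of the uncalled ones, the log2 difference of CCND1 was 0.17 without reversine 1 (also over longer transcripts) and without the 4 libraries, and ran from −0.63 to 0.17 with 1 library left out. The log2 difference of CDKN1B ran from −0.32 to 0.071 with 1 library left out, and was above 0 without control 2 (0.024) or reversine 3.

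Against BafA1 (377), 223 were called with median-ratio scaling, 171 without the 4 libraries, 730 over longer transcripts, 737 over these without reversine 1, and 188 to 317 with 1 library left out. Against MG132 (2000), 945 were called without the 4 libraries, 3712 over longer transcripts, 4462 over these without reversine 1, and 1012 to 2656 with 1 library left out. The cause of these moves was not tested. No paired analysis was possible because the labels carry no replicate numbers. The depth is unknown, so its limit on low genes cannot be given.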
